A study of Mus musculus with 12 samples.

Results

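The 10 genes from *Klk5* to *Klk14* encode the kallikrein-related peptidases that the epidermis makes, and they were followed here in mouse back skin with and without imiquimod (IMQ), a cream that produces psoriasis-like lesions. They were taken by name, as 10 of the 56923 genes in the table of read counts, and all 10 had enough reads to be tested. RNA of 12 female mice aged 8 to 10 weeks on a C57BL/6 background was sequenced, with 3 mice in each of 4 groups. WT mice formed a control and an IMQ group, and so did mice that are labelled *Lcn2*-/-. Shaved back skin was treated for 6 days with 5% IMQ cream or, in control mice, with vehicle, although the sample labels give the control treatment as none. The WT mice were littermates of mice carrying a deletion of *Lcn2*, the gene of the secreted iron-siderophore carrier lipocalin 2, while the labels call the same mice knockdown in one field and KO in another.

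Kallikreins are serine proteases that granular keratinocytes make as inactive precursors and release into the spaces between the cells of the stratum corneum. There they cut each other into active form and then cut corneodesmosin, desmoglein 1 and desmocollin 1, the proteins that rivet corneocytes together, so that surface cells can be shed. The inhibitor LEKTI, the product of *Spink5*, holds them in check, and its loss causes the scaling and barrier defect of Netherton syndrome. *Klk5*, *Klk8* and *Klk14* encode trypsin-like enzymes of this cascade, and *Klk7* encodes its main chymotrypsin-like enzyme.

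Reads of *Lcn2* were present in every library labelled *Lcn2*-/-. The libraries labelled *Lcn2*-/- held 320, 173 and 357 *Lcn2* reads in control skin and 561, 511 and 830 in IMQ skin. WT control libraries held 136, 201 and 86 reads, and WT IMQ libraries held 1010, 2723 and 1572. In IMQ skin *Lcn2* was 1.49 lower on the log2 scale with the genotype label (adjusted p = 0.0525), and in control skin it was 0.87 higher (adjusted p = 0.794). Which part of the gene the reads cover was not analysed, so the mice are called "labelled *Lcn2*-/-" throughout. Library totals lay between 16448226 and 28592110 counts. Skin was the labelled tissue, and although the protocol label mentions retinas, 6 retina genes summed to between 0.47 and 2.91 CPM (counts scaled to library size) in a library. Summed CPM of 7 hair follicle genes ranged from 21.4 to 3429 among WT control mice and from 240 to 10653 among control mice labelled *Lcn2*-/-. Beyond group and mouse number the labels give no batch.

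The 10 genes stand side by side on the plus strand of chromosome 7, from base 43690418 to base 43851181 of GRCm38 in the GENCODE M21 annotation, a span of 160764 bases. Their order is *Klk14*, *Klk13*, *Klk12*, *Klk11*, *Klk10*, *Klk9*, *Klk8*, *Klk7*, *Klk6* and *Klk5*. The gaps between neighbours run from 819 bases between *Klk9* and *Klk8* to 41362 bases between *Klk13* and *Klk12*. Beyond *Klk5* follow *Klk4*, *Klk15* and the glandular kallikreins, which are the *Klk1b* genes and *Klk1*. Of these genes beyond *Klk5*, 16 were in the table. None of those 16 had enough reads to be tested, and together they summed to at most 0.69 CPM in any library. Nearly all reads of the cluster thus fell on the epidermal genes. An antisense gene, *2310002F09Rik*, overlaps 287 exonic bases of *Klk14* and 382 of *Klk8*. The strand used in counting is not given in the sources used here, so reads in those overlaps cannot be told apart.

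Sequence upstream of these genes is shown for 4 members that stand for the different responses described below: *Klk13* and *Klk9*, which rose strongly in both genotypes, *Klk11*, whose rise differed between the genotype labels, and *Klk10*, which was not called. Each line is the 250 bases before a RefSeq start site, 5′ to 3′ on the plus strand of GRCm38.p6, and *Klk11* has 2 start sites. Capitals mark every match, on either strand, to 6 motifs named after AP-1 (TGANTCA), GRHL (AACNNGTT), C/EBP (TTNNGCAA), STAT (TTCNNNGAA) and KLF (CACCC) factors and the TATA box (TATAAA).
Klk13 chr7:43712317-43712566: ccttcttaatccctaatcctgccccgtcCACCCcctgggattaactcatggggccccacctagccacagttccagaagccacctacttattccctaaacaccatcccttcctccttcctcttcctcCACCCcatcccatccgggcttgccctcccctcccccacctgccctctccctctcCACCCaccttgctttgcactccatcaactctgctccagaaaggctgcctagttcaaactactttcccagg
Klk9 chr7:43791641-43791890: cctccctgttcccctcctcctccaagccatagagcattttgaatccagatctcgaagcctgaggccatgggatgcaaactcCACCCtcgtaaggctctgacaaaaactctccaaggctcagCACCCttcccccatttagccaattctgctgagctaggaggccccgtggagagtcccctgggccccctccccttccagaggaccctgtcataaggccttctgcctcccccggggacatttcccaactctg
Klk11 chr7:43774367-43774616: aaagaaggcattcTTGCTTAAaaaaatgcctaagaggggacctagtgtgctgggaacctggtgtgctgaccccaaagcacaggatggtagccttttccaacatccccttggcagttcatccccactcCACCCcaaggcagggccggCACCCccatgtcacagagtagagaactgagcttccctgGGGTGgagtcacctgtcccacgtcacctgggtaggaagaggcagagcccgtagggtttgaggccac
Klk11 chr7:43776079-43776328: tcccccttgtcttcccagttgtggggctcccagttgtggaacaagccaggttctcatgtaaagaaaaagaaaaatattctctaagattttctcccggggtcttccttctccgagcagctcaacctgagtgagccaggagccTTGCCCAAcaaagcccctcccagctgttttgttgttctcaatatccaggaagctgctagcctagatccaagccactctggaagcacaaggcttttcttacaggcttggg
Klk10 chr7:43780804-43781053: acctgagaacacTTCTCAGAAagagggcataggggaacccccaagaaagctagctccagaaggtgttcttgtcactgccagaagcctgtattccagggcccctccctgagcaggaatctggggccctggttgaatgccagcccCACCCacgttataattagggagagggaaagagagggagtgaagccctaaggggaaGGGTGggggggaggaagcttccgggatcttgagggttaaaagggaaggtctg

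All 10 genes had a RefSeq start, with 12 windows in all because *Klk6* and *Klk11* have 2 each. CACCC was found in 9 of the 12 windows, against 52.01% of the 32851 windows of the same length before all RefSeq starts. The C/EBP letters were found before both *Klk11* starts and no other member, and 9.56% of all windows hold them. The STAT letters were found before *Klk10* only, and 7.02% of all windows hold them. No member window held the AP-1 letters (6.75% of all windows), the GRHL letters (3.64%) or TATAAA (12.37%). The C/EBP and STAT matches, in 2 and 1 of the 12 windows, are too few to tell from these shares. They are not read as a trait of *Klk11* or *Klk10*. A match of letters is a description of sequence, and no binding was measured.

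In WT control skin the family was uneven. Levels of different genes are compared per length, as CPM divided by exonic length in kilobases (RPKM). *Klk7* had the highest mean level at 174 ± 42.8 RPKM (SD, n = 3), followed by *Klk10* at 109 ± 12.7. Next came *Klk5* at 35.8 ± 11.7, *Klk6* at 29.7 ± 5.12, *Klk8* at 19.5 ± 8.42 and *Klk11* at 13.7 ± 2.23, and the mice of each of these neighbours overlapped those of the next. *Klk9* at 4.26 ± 1.38, *Klk13* at 3.19 ± 1.58 and *Klk12* at 1.18 ± 0.43 formed a low tier in which neighbours also overlapped. *Klk14* was lowest at 0.086 ± 0.015 RPKM, from 2, 3 and 2 reads, which is at or below the floor of 3 counts in each library. Control mice labelled *Lcn2*-/- kept *Klk7* and *Klk10* on top, at 210 ± 16.2 and 92.7 ± 17.8 RPKM, and *Klk14* at the bottom at 0.32 ± 0.17.

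IMQ raised nearly the whole family in WT skin. Compared with WT control, 9 of the 10 genes were higher with an adjusted p under 0.05, where 14.2% of the 18529 tested genes were higher and 14.3% lower. The median log2 fold change was 3.15 for the 10 genes and -0.02 for all tested genes. The highest control mouse lay below the lowest IMQ mouse for 10 of 10 genes, as it did for 20.1% of all tested genes. When calls needed a change above 2-fold at an unadjusted p under 0.05, the count was also 9, against 8.40% of all genes. Whether more cells of a type or more RNA per cell lies behind a higher level cannot be told apart in whole skin.

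**Figure D1:**
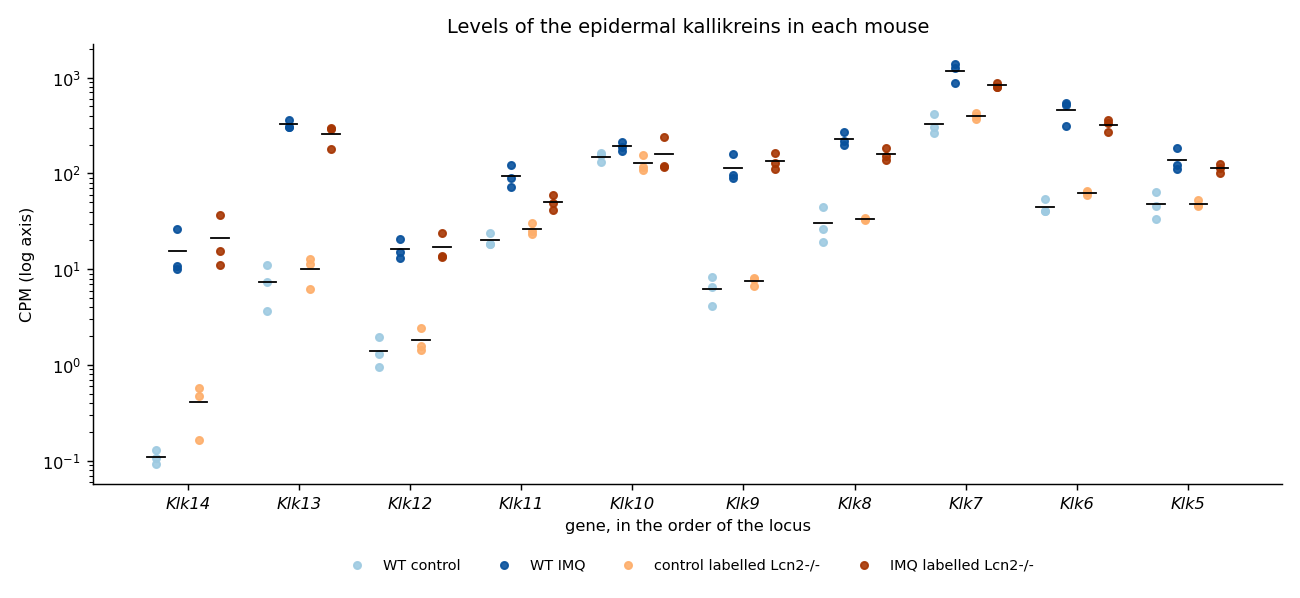
CPM on a log axis for each of the 10 kallikrein genes, in the order of the locus, with 1 point per mouse and a line at the mean of each group of 3. The IMQ mice lie above the control mice of the same genotype label for 9 genes in both labels, and *Klk10* overlaps among mice labelled *Lcn2*-/-.

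Among the chymotrypsin-like enzymes, *Klk7* measured 303, 266 and 422 CPM in WT control mice and 1390, 1260 and 888 CPM in WT IMQ mice. It rose by 1.84 ± 0.20 on the log2 scale (SE), or 3.57-fold (adjusted p = 6.5e-05). *Klk9*, a less studied chymotrypsin-like relative, measured 6.47, 4.17 and 8.24 CPM in control mice and 160, 96.4 and 88.6 CPM in IMQ mice. The lowest IMQ mouse lay far above the highest control mouse. The rise was 4.20 ± 0.30 (18.3-fold, adjusted p = 3.64e-06), and in IMQ skin its RPKM range overlapped that of *Klk5*.

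*Klk5*, which encodes the trypsin-like enzyme that can activate itself and other kallikreins, measured 45.7, 33.4 and 64.3 CPM in WT control mice and 185, 123 and 110 CPM in WT IMQ mice. Its rise of 1.55 ± 0.24 was the smallest of the 9 called (2.92-fold, adjusted p = 0.00075). *Klk8*, the gene of neuropsin, measured 26.5, 19.2 and 44.4 CPM in control and 270, 219 and 199 CPM in IMQ mice. That was a rise of 2.93 ± 0.26, and the groups lay far apart relative to the spread among mice.

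*Klk14*, which encodes a trypsin-like enzyme with strong activity in the stratum corneum, went from 2, 3 and 2 reads in WT control mice to 180, 387 and 207 reads in WT IMQ mice. Normalized for library size, the summed counts had a ratio of 135 with an exact interval of 65.4 to 338, which covers counting error only. The fitted rise was 7.07 ± 0.74 on the log2 scale (adjusted p = 5.52e-05). Antisense *2310002F09Rik* had 25, 31 and 35 reads in WT control mice and 533, 126 and 380 in WT IMQ mice. The WT IMQ mouse with the most *Klk14* reads had the fewest antisense reads. IMQ mice labelled *Lcn2*-/- went the other way, with 598, 188 and 258 *Klk14* reads and 139, 88 and 129 antisense reads. How far antisense reads enter the *Klk14* counts was not tested.

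Of the remaining trypsin-like members, *Klk13* measured 7.35, 3.7 and 11 CPM in WT control mice and 359, 308 and 307 CPM in WT IMQ mice. It rose by 5.48 ± 0.41 (44.5-fold, adjusted p = 5.77e-06), second to *Klk14*. *Klk6* measured 40.5, 40.3 and 53.8 CPM in control mice and 545, 518 and 316 CPM in IMQ mice, a rise of 3.36 ± 0.22 (10.2-fold, adjusted p = 2.09e-06). With this rise *Klk6* passed *Klk10* and became the second most abundant member, at 304 ± 82.6 RPKM behind *Klk7* at 623 ± 137.

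*Klk12* stayed low in absolute terms, at 1.29, 1.98 and 0.957 CPM in WT control mice and 20.9, 15 and 13.1 CPM in WT IMQ mice. The rise was 3.52 ± 0.35 (11.5-fold, adjusted p = 3.54e-05). *Klk11* measured 18.4, 18.1 and 23.9 CPM in control and 121, 72.9 and 90.4 CPM in IMQ mice, a rise of 2.24 ± 0.21 (4.71-fold, adjusted p = 2.15e-05). Mouse 3 of the WT IMQ group had the lowest level in its group of every member but *Klk11*.

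*Klk10*, which sits between *Klk11* and *Klk9*, was the exception. It measured 130, 154 and 164 CPM in WT control mice and 211, 190 and 171 CPM in WT IMQ mice. The groups did not overlap, but the difference of 0.35 ± 0.25 did not pass (adjusted p = 0.321, 95% interval -0.20 to 0.90). The upper end of that interval lies below the rise of every called member. *Klk11* ends 1771 bases before *Klk10* and *Klk9* starts 6480 bases after it, and both rose.

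The 4 genes with the lowest control levels, *Klk14*, *Klk12*, *Klk13* and *Klk9*, had the 4 largest rises. Level and rise both use the same control mice, so this is given as a description. As a result the makeup of the family changed. *Klk7* made up 44.4 ± 2.23% of the summed kallikrein RPKM in WT control mice and 38.1 ± 1.87% in WT IMQ mice, and *Klk10* went from 28.4 ± 4.55% to 8.66 ± 0.91%. *Klk6* went from 7.62 ± 0.29% to 18.5 ± 2.18%, and *Klk13* from 0.79 ± 0.27% to 8.84 ± 1.33%. In WT IMQ skin *Klk8*, *Klk13* and *Klk10* were at 149 ± 23.8, 141 ± 13.0 and 139 ± 14.5 RPKM, levels that did not differ beyond their spread.

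**Figure D2:**
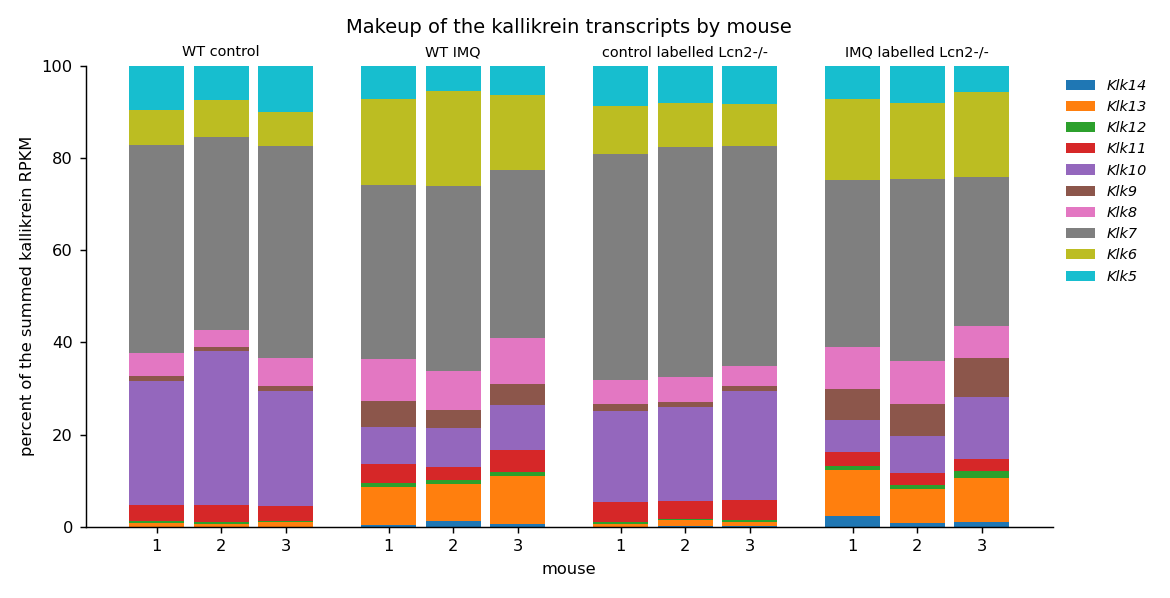
Percent of the summed RPKM of the 10 kallikrein genes that each gene contributed, as 1 stacked bar per mouse in the 4 groups. In IMQ mice the *Klk10* band is narrower (6.8 to 13.4%, against 19.9 to 33.5% in control mice) and the *Klk6* and *Klk13* bands are wider.

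In mice labelled *Lcn2*-/- the count was the same, and 9 of 10 genes were higher in IMQ than in control skin with an adjusted p under 0.05, against 14.1% of all tested genes higher and 11.2% lower. Groups did not overlap for 9 genes, as for 23.1% of all genes. The median log2 fold change was 2.30, against -0.05 over all genes. A change above 2-fold at an unadjusted p under 0.05 held for 8 genes, against 8.59% of all genes, since *Klk11* rose 1.90-fold.

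*Klk9*, *Klk12*, *Klk13* and *Klk14* again rose the most. *Klk13* measured 6.21, 12.7 and 11.3 CPM in control mice and 296, 180 and 292 CPM in IMQ mice labelled *Lcn2*-/-, a rise of 4.67 ± 0.40 (25.5-fold). *Klk9* measured 8.11, 6.77 and 7.86 CPM and then 128, 111 and 164 CPM, a rise of 4.14 ± 0.29 that lay close to the 4.20 of WT mice. *Klk14* had 5, 9 and 13 reads in control mice and 598, 188 and 258 in IMQ mice, a count ratio of 55.2 with an exact interval of 37.7 to 84.2. IMQ mouse 1 had more reads than the other two together. *Klk12* measured 1.45, 1.6 and 2.46 CPM in control mice and 13.8, 13.4 and 23.8 CPM in IMQ mice, a rise of 3.21 ± 0.34.

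The main desquamation enzymes rose as well. *Klk7* measured 371, 393 and 432 CPM in control mice and 883, 807 and 800 CPM in IMQ mice labelled *Lcn2*-/-, a rise of 1.06 ± 0.20 (2.08-fold, adjusted p = 0.00301). *Klk5* measured 46.5, 45.6 and 53.4 CPM and then 125, 115 and 101 CPM, a rise of 1.23 ± 0.24 (adjusted p = 0.00377). The mice of each group lay close together for both genes. *Klk8* measured 33.1, 34.4 and 32.5 CPM in control mice and 182, 153 and 139 CPM in IMQ mice, a rise of 2.24 ± 0.25. *Klk6* measured 64, 59.5 and 66.1 CPM and then 339, 268 and 361 CPM, a rise of 2.35 ± 0.21.

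*Klk11* measured 25.1, 23.3 and 30.3 CPM in control mice and 59.7, 41.1 and 48.6 CPM in IMQ mice labelled *Lcn2*-/-. The groups did not overlap, and its rise of 0.92 ± 0.20 was the smallest called (adjusted p = 0.00734). *Klk10* measured 110, 117 and 155 CPM in control mice and 120, 116 and 240 CPM in IMQ mice. Its groups overlapped, and the difference was 0.32 ± 0.25 (adjusted p = 0.379). The direction rested on IMQ mouse 3, without which the difference was -0.11.

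**Figure D3:**
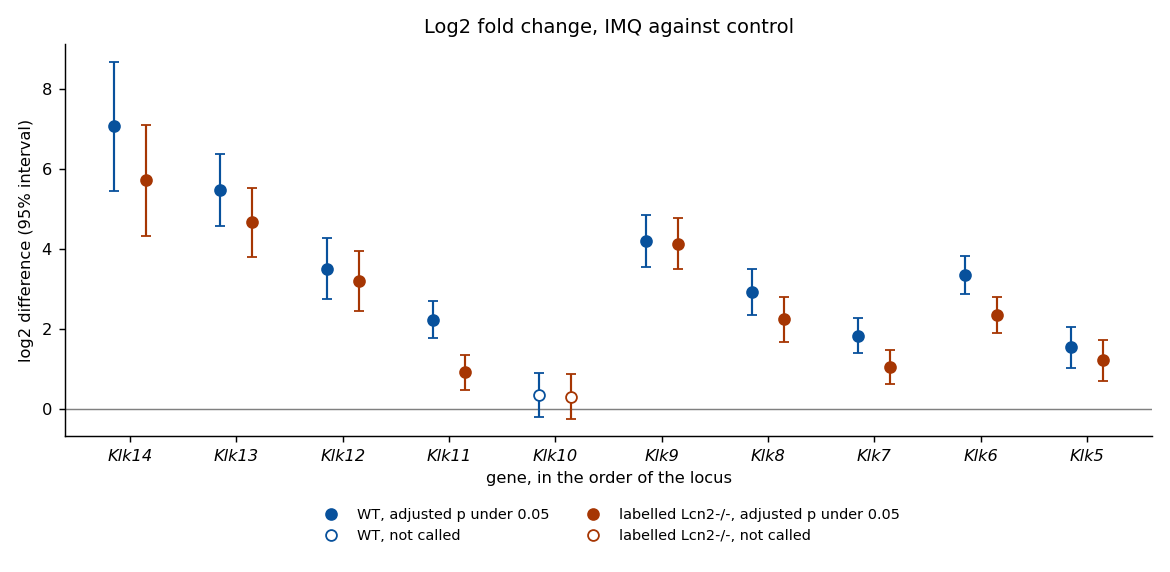
Log2 fold change of IMQ against control for each kallikrein gene in WT mice and in mice labelled *Lcn2*-/-, with 95% intervals from the fit over 12 mice. Filled points had an adjusted p under 0.05, and the open points of *Klk10* (0.35 and 0.32) have intervals that include 0.

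In control skin no kallikrein was called between the genotype labels. Neither direction held a gene with an adjusted p under 0.05 by edgeR, against 0.00540% of all tested genes higher and 0.00540% lower. DESeq2 also called 0, against 0.350% of the genes it tested higher and 0.310% lower. At an unadjusted p under 0.05 there were 0 lower (3.95% of all genes) and 1 higher (2.65% of all genes). This was *Klk6*, at 63.2 ± 3.41 CPM in mice labelled *Lcn2*-/- and 44.9 ± 7.74 CPM in WT mice (log2 difference 0.49 ± 0.20). *Klk14* was at 5, 9 and 13 reads against 2, 3 and 2, too few for a difference to be called (adjusted p = 0.835). The median difference over the 10 genes was 0.32, against 0.0007 over all tested genes.

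Within IMQ-treated skin 1 kallikrein gene, *Klk11*, was lower in mice labelled *Lcn2*-/- than in WT mice. By edgeR 0 of 10 genes were higher (2.19% of all tested genes) and 1 was lower (2.60% of all tested genes), and 0 were lower by the rule of 2-fold and an unadjusted p under 0.05 (3.35% of all genes). DESeq2 called 0 higher and 1 lower, against 7.39% and 7.87% of the genes it tested. At an unadjusted p under 0.05 there were 0 higher and 4 lower, against 12.5% and 14.5% of all genes. *Klk11* measured 121, 72.9 and 90.4 CPM in WT IMQ mice and 59.7, 41.1 and 48.6 CPM in IMQ mice labelled *Lcn2*-/-. The groups did not overlap, and the difference was -0.93 ± 0.20 (1.91-fold lower, adjusted p = 0.0346). The call was lost without WT IMQ mouse 1 (adjusted p = 0.166) or 3 (0.109), or without IMQ mouse 1 (0.0596), 2 (0.151) or 3 (0.0861) labelled *Lcn2*-/-, while the difference stayed between -1.08 and -0.72.

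Groups did not overlap, with the mice labelled *Lcn2*-/- lower, for 4 genes, *Klk7*, *Klk8*, *Klk11* and *Klk13*, as for 17.3% of all tested genes. *Klk6* had 459 ± 125 CPM in WT IMQ mice and 323 ± 48.7 in IMQ mice labelled *Lcn2*-/-, a difference of -0.51 ± 0.20 (adjusted p = 0.134). *Klk7* differed by -0.51 ± 0.19 (adjusted p = 0.125) and *Klk8* by -0.54 ± 0.24 (adjusted p = 0.18). *Klk13* differed by -0.34 with an interval of -1.08 to 0.39, and *Klk5* by -0.30 with an interval of -0.81 to 0.21. *Klk9*, *Klk12* and *Klk14* had estimates above 0 (0.22, 0.06 and 0.43), each with an interval that includes 0. None of these differences passed the threshold.

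The interaction, which is the rise in mice labelled *Lcn2*-/- minus the rise in WT mice, was below 0 for all 10 genes. Its median was -0.73, against -0.02 over all tested genes. It also takes in the difference between the control groups, which was above 0 for 9 of the 10 genes, with 0 called. The mice are shared between these comparisons, and leaving out single mice turned the sign for *Klk9* and *Klk10*. It passed for 1 gene by edgeR, *Klk11* at -1.31 ± 0.29 (adjusted p = 0.0432), against 0.783% of all genes lower and 1.37% higher, with 0 of the 10 higher by edgeR. DESeq2 called 0 higher and 2 lower, against 6.17% and 5.41% of the genes it tested. At an unadjusted p under 0.05 there were 0 higher and 3 lower, against 12.3% and 11.9% of all genes. A smaller rise by over 2-fold at an unadjusted p under 0.05 held for 2 genes, *Klk6* and *Klk11*, against 4.91% of all genes. *Klk6* was at -1.004 ± 0.28 (adjusted p = 0.0788 by edgeR and 0.0191 by DESeq2), and *Klk7* at -0.78 ± 0.27 (adjusted p = 0.121).

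These calls were not stable when single mice were left out. For *Klk11* the adjusted p of the interaction stayed under 0.05 without WT control mouse 3, WT IMQ mouse 2 or control mouse 1 labelled *Lcn2*-/-. It was 0.105 without WT control mouse 1, 0.0821 without WT control mouse 2, 0.130 without WT IMQ mouse 1 and 0.101 without WT IMQ mouse 3. Among mice labelled *Lcn2*-/- it was 0.0758 and 0.121 without control mouse 2 or 3, and 0.0570, 0.130 and 0.0843 without IMQ mouse 1, 2 or 3. Without WT control mouse 3 there were 4 calls, with *Klk6* (adjusted p = 0.0433), *Klk7* (0.0417) and *Klk8* (0.0308) added. The estimate for *Klk11* lay between -1.47 and -1.10 in all 12 of these fits.

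**Figure D4:**
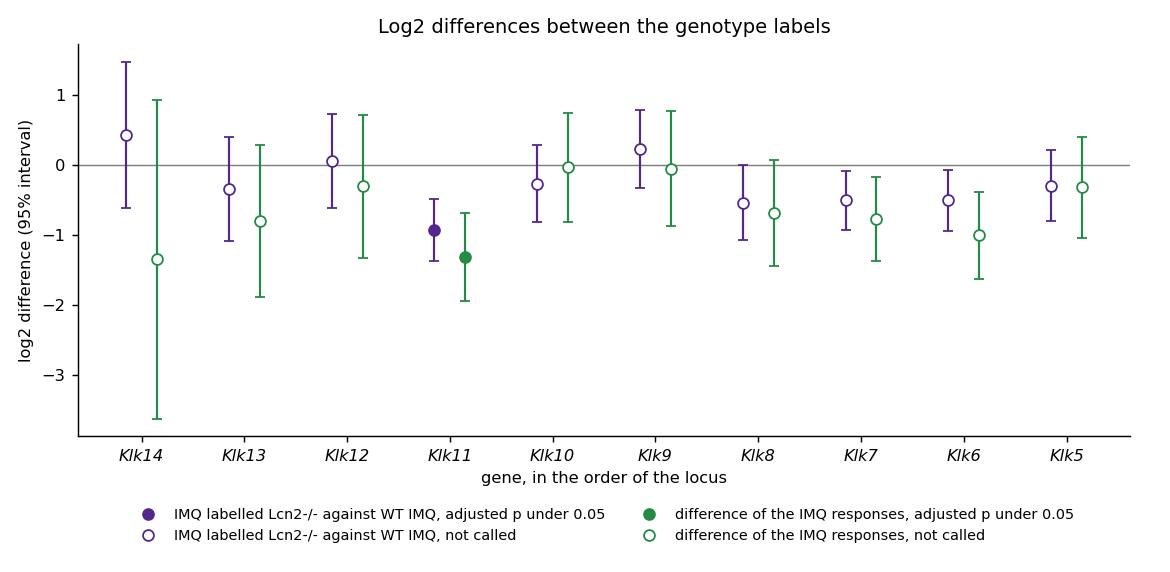
Log2 difference between IMQ skin labelled *Lcn2*-/- and WT IMQ skin, and the difference of the IMQ responses, for each kallikrein gene with 95% intervals. *Klk11* has the filled points (-0.93 and -1.31), with an adjusted p under 0.05, and the other 9 genes have open points.

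Keratinocyte genes had medians below 0 between the IMQ groups, as the kallikreins did. In IMQ skin labelled *Lcn2*-/- against WT IMQ, the median log2 difference was -0.61 for 7 basal genes, -0.60 for 5 suprabasal genes, -0.58 for 7 granular genes and -1.29 for 4 genes of activated keratinocytes. It was -0.32 for the kallikreins and 0.66 for 7 fibroblast genes. Summed fibroblast CPM was 10168 to 10761 in WT IMQ mice and 19809 to 20699 in IMQ mice labelled *Lcn2*-/-. Summed granular CPM was 1661 to 2287 and 1309 to 1807, with overlap, and suprabasal sums overlapped too. Sums did not overlap for basal genes (15638 to 22784 and 9321 to 13310). Those of activated genes did not overlap either (9320 to 19169 and 4910 to 8107). Of the genes of these lists, 3 basal genes and 1 granular gene were called lower, against 2.60% of all tested genes. Called higher were 3 fibroblast genes, against 2.19% of all tested genes. Their part in the kallikrein differences was not tested. With IMQ in WT mice the medians of the keratinocyte lists, in the same order, were 1.15, 1.77, 2.39 and 7.15, all above 0. Of 7 granular genes, 5 were called higher and 1 lower.

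Of 7 genes listed as inhibitors, 5 had enough reads, and in WT mice 3 rose and 1 fell with IMQ. The 3 that rose, *Spink5*, *Spink12* and *Slpi*, encode serine protease inhibitors, and the 1 that fell, *Cst6*, encodes an inhibitor of cysteine proteases, a class to which kallikreins do not belong. *Spink5*, the gene of LEKTI, measured 230, 293 and 276 CPM in WT control and 611, 537 and 468 CPM in WT IMQ mice, a rise of 1.02 ± 0.17 (adjusted p = 0.00109). In mice labelled *Lcn2*-/- it measured 292, 242 and 357 CPM and then 361, 291 and 322 CPM. Those groups overlapped, with a difference of 0.13 ± 0.17 (adjusted p = 0.603).

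Between the IMQ groups *Spink5* was lower in mice labelled *Lcn2*-/- by -0.73 ± 0.17 on the log2 scale (adjusted p = 0.0375), with no overlap. Among the 26 tested inhibitors, substrates and proteases, it was the only gene called lower there by edgeR, against 2.60% of all tested genes. DESeq2 called 3 of them lower, against 7.87% of the genes it tested. By edgeR no gene of these lists was called lower without WT IMQ mouse 1 or 3, or without IMQ mouse 1, 2 or 3 labelled *Lcn2*-/-. The interaction for *Spink5* was -0.89 ± 0.24 (adjusted p = 0.068).

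*Spink12* and *Slpi* had larger rises than *Spink5* in both genotypes. *Spink12*, a relative of *Spink5*, rose 7.39 ± 0.62 in WT mice, from 6 summed reads to 878, a ratio of 179 with an exact interval of 82.0 to 490. In mice labelled *Lcn2*-/- it went from 10 reads to 306, a ratio of 43.7 (23.5 to 92.1). *Slpi*, the gene of secretory leukocyte protease inhibitor, rose 5.94 ± 0.34 and 4.58 ± 0.31 in WT mice and in mice labelled *Lcn2*-/-. *Cst6*, which encodes cystatin E/M of the cornified layer, fell by 1.75 and by 1.51 on the log2 scale (adjusted p = 0.00401 and 0.0103). *Serpina12*, the gene of vaspin, was not called (1.09 ± 0.40 and 0.73 ± 0.40).

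The kallikrein transcripts were also set against those of 1 listed inhibitor, *Spink5*. *Spink12* and *Slpi*, which had larger rises, were not used, so the ratio holds for *Spink5* only. Summed kallikrein RPKM was 391 ± 79.8 in WT control and 1629 ± 324 in WT IMQ mice, and 432 ± 41.4 and 1221 ± 128 in mice labelled *Lcn2*-/-. The log2 ratio of this sum to *Spink5* RPKM was 2.88, 2.46 and 3.06 in WT control mice and 3.92, 3.89 and 3.72 in WT IMQ mice. In mice labelled *Lcn2*-/- it was 2.72, 3.04 and 2.68 in control and 4.09, 4.15 and 4.28 in IMQ skin. All IMQ mice lay above all control mice, and the IMQ mice labelled *Lcn2*-/- lay above the WT IMQ mice. For each of these 3 comparisons the two-sided exact permutation p was 0.1, the smallest that 3 mice against 3 allow. The sum without its relation to *Spink5* overlapped between the IMQ groups (exact permutation p = 0.2). For *Klk5* alone, the log2 ratio to *Spink5* overlapped in WT mice (exact permutation p = 0.2). It was -0.49, -1.29 and -0.26 in WT control and 0.12, -0.29 and -0.24 in WT IMQ mice. The *Klk5* ratio in mice labelled *Lcn2*-/- and the *Klk7* ratio in both genotypes did not overlap (exact permutation p = 0.1 each).

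**Figure D5:**
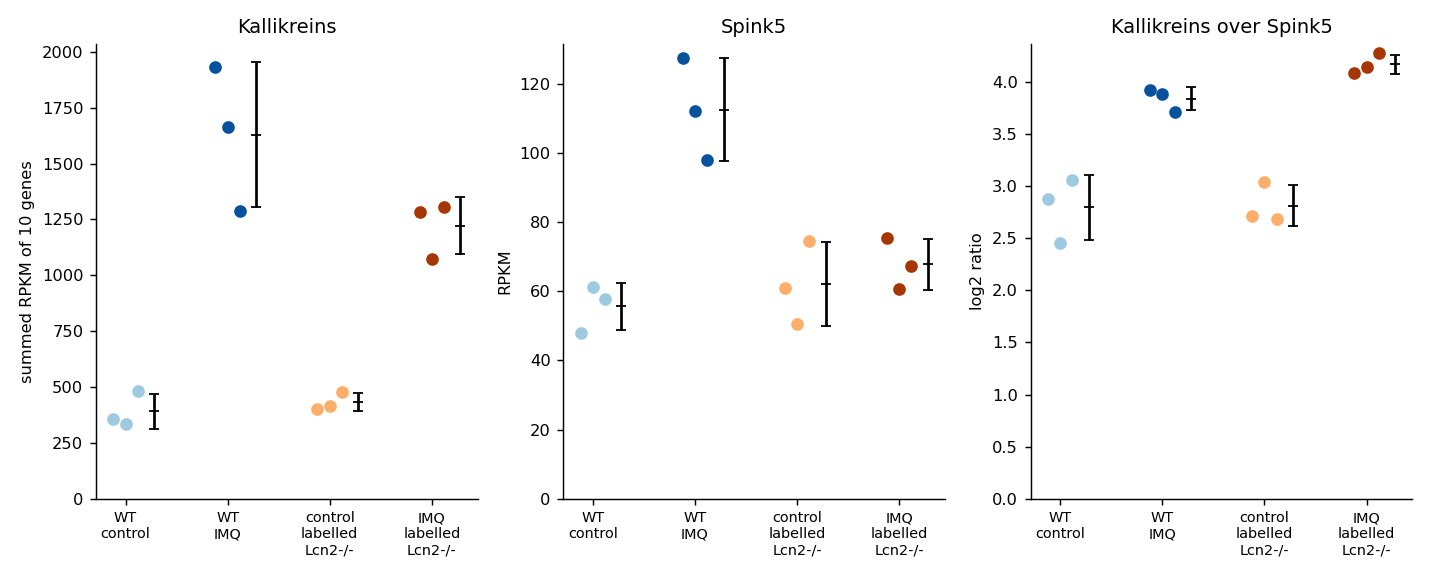
Summed RPKM of the 10 kallikrein genes, RPKM of *Spink5*, and the log2 ratio of the former to the latter, with 1 point per mouse and the mean ± SD of each group of 3 beside them. The ratio is 2.46 to 3.06 in the control mice and 3.72 to 4.28 in the IMQ mice.

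The targets of the kallikreins in the corneodesmosome rose in part. Of 5 genes, 3 were higher with IMQ in WT mice and the same 3 in mice labelled *Lcn2*-/-. *Cdsn*, the gene of corneodesmosin, rose 1.52 ± 0.20 and 1.26 ± 0.20. *Dsc1*, the gene of desmocollin 1, rose 2.46 ± 0.35 and 1.30 ± 0.34. *Dsg1b* rose 2.51 ± 0.26 and 1.74 ± 0.26, while *Dsg1a* (0.58 and -0.51) and *Dsg1c* (-0.83 and -0.94) were not called. The 3 desmoglein 1 genes are close copies, and how reads matching several of them were counted is not given in the sources used here, so their split is uncertain.

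Of 6 other substrates, 3 were higher in WT mice and 5 higher and 1 lower in mice labelled *Lcn2*-/-. *Flg*, the gene of filaggrin, the source of the skin's natural moisturizing factor, rose 3.48 ± 0.41 and 3.12 ± 0.40. *Il1b*, whose precursor kallikreins can cut, rose 3.70 ± 0.55 and 2.21 ± 0.51. *F2rl1*, the gene of the receptor PAR2 that trypsin-like kallikreins activate, fell by 1.12 in mice labelled *Lcn2*-/- (adjusted p = 0.00558) and was at -0.38 in WT mice (adjusted p = 0.24). *Camp*, the cathelicidin precursor that KLK5 processes in skin, was at 0.666, 0 and 0.678 CPM in WT IMQ mice and 5.25, 1.99 and 3.72 CPM in IMQ mice labelled *Lcn2*-/-. Of the 26 tested listed genes it was the only 1 called higher there (adjusted p = 0.0489), against 2.19% of all tested genes. That call was lost in the fits without WT IMQ mouse 1 or 3, or IMQ mouse 1, 2 or 3 labelled *Lcn2*-/-. *Camp* is also made by neutrophils, and 6 neutrophil genes summed to 142 to 179 CPM in WT IMQ mice and 191 to 491 CPM in IMQ mice labelled *Lcn2*-/-, whose part in it was not tested.

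Other proteases of the stratum corneum rose with the kallikreins, with 4 of 6 called higher in WT mice and 5 of 6 in mice labelled *Lcn2*-/-. *Casp14*, the gene of the filaggrin-processing caspase 14, rose 3.70 ± 0.38 and 2.96 ± 0.37. *Blmh*, which encodes bleomycin hydrolase, rose 2.20 ± 0.24 and 1.49 ± 0.23, and *Asprv1*, which encodes an aspartic protease that trims profilaggrin, rose 1.70 ± 0.23 and 1.31 ± 0.23. Upstream, 4 of 7 listed genes could be tested. *Prss8*, the gene of the membrane protease prostasin, rose 0.59 ± 0.18 in WT mice (adjusted p = 0.0288). *St14*, the gene of matriptase, which can activate kallikrein precursors, fell by 1.38 in mice labelled *Lcn2*-/- (adjusted p = 0.032), and was at -0.27 in WT mice (adjusted p = 0.664).

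Over all the lists, 26 of 47 genes were tested, and 14 rose and 1 fell in WT mice, where 14.2% of all tested genes were higher and 14.3% lower. In mice labelled *Lcn2*-/- 15 rose and 3 fell, where 14.1% of all tested genes were higher and 11.2% lower. In control skin 0 were called by edgeR, against 1 higher by DESeq2 (0.350% of the genes it tested) and 3 higher at an unadjusted p under 0.05 (2.65% of all genes). For the interaction 0 were called by edgeR, against 3 lower by DESeq2 (5.41% of the genes it tested) and 7 lower at an unadjusted p under 0.05 (11.9% of all genes).

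The 10 genes fell into different profiles across the 12 mice. Likeness was measured as the root mean square difference of log2 CPM after each gene was centred on its own mean, so that 0 means the same profile. *Klk5* and *Klk7* were closest at 0.17, and *Klk7* and *Klk11* (0.27) and *Klk6* and *Klk8* (0.28) followed. *Klk10* was 0.67 or more from every other member and 2.82 from *Klk14*. Profiles were not scaled by the size of the change, so these distances also reflect the unlike rises given above. Outside the family, *Klk7* was nearest to *Ivl*, the gene of the cornified envelope protein involucrin (0.17), and *Klk11* to *Abca12*, the lipid transporter of lamellar granules (0.14). *Klk5* was nearest to *Dmkn*, the gene of dermokine (0.16), *Klk8* to *Calm4* (0.17) and *Klk6* to *2310046K23Rik* (0.17). Some second neighbours were nearly as close, with *Pqlc1* for *Klk7* (0.17), *Tyro3* for *Klk11* (0.14) and *Scnn1g* for *Klk5* (0.16). *Klk9*, *Klk12*, *Klk13* and *Klk14* had no neighbour nearer than 0.34, and their nearest were *Degs2* (0.40), *Gm28502* (0.34), *Chil1* (0.44) and *Lpo* (0.52).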

How the data were processed

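The members and gene lists were chosen with earlier results of these data known. RNA from back skin of 12 mice was sequenced, and the authors deposited raw counts of reads per Ensembl gene, without normalization. The submitters' processing notes name HISAT and the build mm8, and the annotation and strand setting are not given in the sources used here. The paper's methods name DESeq2 for differential expression. Symbols and positions came from GENCODE M21 (GRCm38), which matched 52073 of 56923 identifiers (91.48%). The files themselves hold no coordinates.

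After TMM normalization the counts were tested by edgeR 4.0.16 (limma 3.58.1, R 4.3.3) in a robust quasi-likelihood fit of 4 group means over 12 mice. The 18529 genes passing filterByExpr (minimum count 10, minimum total 15) were tested, and p-values were Benjamini-Hochberg adjusted over all of them. CPM uses the TMM library size, and RPKM divides it by exonic length. The biological coefficient of variation common to all genes was 0.253. The floor of 3 counts was 0.0985 to 0.202 CPM. Both this floor and the exact intervals of the count ratios cover only counting error, and they treat reads as independent molecules, which reads are not. The SE of a log2 difference is its absolute value divided by the square root of the quasi-likelihood F. Intervals of the log2 differences were built from this SE. They come from the edgeR fit over 12 mice and include the spread between mice. Within each group no library was a duplicate of another, and libraries of different groups were not compared for this. The p-values measure the spread between these mice.

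On simulated counts for WT IMQ against WT control, over 18529 genes with 200 changed 4-fold, edgeR recovered 149 (74.5%) with 5 false of 154 calls, and DESeq2 1.42.0 recovered 164 (82%) with 29 false of 193. Alternatives were RLE size factors, DESeq2, no filter, compared mice only, the replicate number as a block, each mouse left out and the fold rule (above 2 with an unadjusted p under 0.05). Named genes are the 10 members, *Lcn2*, tested genes of the lists and, for each called member, the 2 genes nearest in profile (prior count 2). Figures used matplotlib 3.10.9 in Python 3.11.15. Promoter windows came from RefSeq (GRCm38.p6). Protein sequences were not used here. The values of 1 listed gene are not reported here.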

Additional observations from a re-analysis of the deposited data

Results flagged for a closer look

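The IMQ response of *Klk11* differed between the genotype labels by a test of the difference itself. The interaction was -1.31 on the log2 scale (SE 0.29, adjusted p = 0.0432 by edgeR's quasi-likelihood test), from a rise of 2.24 in WT mice and 0.92 in mice labelled *Lcn2*-/-. Part of it lies in control skin, where *Klk11* had 20.2 ± 3.27 CPM in WT mice and 26.2 ± 3.65 in mice labelled *Lcn2*-/- (not called). The call held in 3 of 12 fits that left out 1 mouse, with adjusted p from 0.0131 to 0.130 over the 12, and it was lost with the replicate block (0.0609). Marker genes of granular, basal, activated and suprabasal keratinocytes had interaction medians of -1.33, -0.59, -1.60 and -0.34, and fibroblast genes one of 0.98 with 3 of 7 called higher. Their part in the *Klk11* difference was not tested.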

How the results depend on the processing

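The rise of the 9 called members with IMQ kept its direction and its call, in WT mice and in mice labelled *Lcn2*-/-, under RLE size factors, DESeq2, no filter, the compared mice only, the replicate block and each mouse left out. Comparisons between genotype labels were less stable, and the cause was not tested. Members called lower between the IMQ groups numbered 0 by the fold rule and 0 to 1 with a mouse left out. Members with a lower interaction numbered 2 by DESeq2, 2 by the fold rule and 0 to 4 with a mouse left out. For the pathway lists, IMQ labelled *Lcn2*-/- against WT IMQ gave 3 lower by DESeq2, 5 lower on the compared mice only, 0 to 2 lower and 0 to 1 higher with a mouse left out. The lists gave 1 (DESeq2) and 2 (fold rule) higher in control skin. Their interaction gave 3 lower by DESeq2, 1 with no filter, 4 by the fold rule and 0 to 1 with a mouse left out. Their falls with IMQ in mice labelled *Lcn2*-/- numbered 1 to 3 with a mouse left out.

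Single mice turned the sign of differences that were not called. With a mouse left out, *Klk10* with IMQ in mice labelled *Lcn2*-/- ranged from -0.11 to 0.50. Between the IMQ groups *Klk12* ranged from -0.26 to 0.28 and *Klk14* from -0.24 to 1.01. In control skin *Klk5* ranged from -0.16 to 0.29 and *Klk8* from -0.066 to 0.55. The interactions ranged from -0.29 to 0.26 for *Klk9* and from -0.46 to 0.15 for *Klk10*.

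Mouse numbers did not pair the groups: same-numbered mice correlated in their deviations from group means at r = -0.55 to 0.20 over 18 pairs (mean -0.05), and 4 of 12 libraries correlated best with their own number. With the replicate block the pathway lists had 0 higher and 0 lower between the IMQ groups, no member had a called interaction (count 0), and that of *Klk11* was -1.30 (adjusted p = 0.0609). Member counts with the block were 9 and 9 for IMQ against control.

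Depth limits *Klk14* and *Spink12* in control skin, where counts are near the floor. On the control mice only, *Klk14* did not pass the filter and gave no value.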
